A study of Homo sapiens with 3 samples.

Results

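Mitochondrial protein import and quality control was examined as a set of 41 genes, listed by symbol, in deposited CUT&Tag peak lists of A2780, a human ovarian carcinoma cell line. The gene table used here gave a position for 39 of the 41, out of 19970 protein-coding genes on chromosomes 1 to 22 and X; GRPEL1 and GRPEL2, the nucleotide exchange factors of the import motor, were not analysed here. CUT&Tag directs a transposase to antibody-bound chromatin, and the antibody here recognised H3K27ac, the acetyl mark at lysine 27 of histone H3 that active promoters and enhancers carry. Each of 3 groups had 1 library. For BPP, cells received a peptide of that name which, by the series design, competes for the phosphorylation site of BIN2. For CTR, control cells were profiled with the same antibody; their treatment is not given in the sources used here, and for the RNA-seq the series design gives a TAT peptide as comparator. The IgG library recorded background with a non-specific antibody. No genotype or allele was given in the labels, and a single culture stands for each condition.

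With 1 library per group, differences between BPP and CTR could not be set against replicate error, and no test between them was made. The lists held 17841 BPP, 14836 CTR and 7701 IgG peaks, and the number of reads behind each is unknown here. Among 12 ovarian carcinoma and epithelial markers, 3 had a peak at a gene end in BPP (KRT8, KRT18 and MSLN) and 2 in CTR (KRT8 and KRT18), while EPCAM, PAX8, WT1 and MUC16 had none. Of 4 mesenchymal markers, VIM and ZEB1 were marked in both. None of 4 leukocyte, 4 endothelial or 4 hepatocyte markers had such a peak in any list.

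Nearly all mitochondrial proteins are encoded in the nucleus and imported after translation. Precursors pass the outer membrane through the TOM complex, and from there the SAM complex builds outer-membrane barrels, small TIM chaperones and the disulfide relay serve the intermembrane space, TIM22 inserts carriers, and TIM23 with its HSP70 motor draws precursors into the matrix. There, presequences are removed, the HSPD1 and HSPE1 chaperonin folds proteins, and the proteases LONP1 and CLPXP remove damaged ones. YME1L1 is a protease of the inner membrane. The genes of this machinery are active in most cells. H3K27ac at a promoter accompanies activity but does not measure transcript level.

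The promoter stretches below were chosen for the findings that follow. All 4 members of the first set had BPP and CTR summits within 1 bp of each other near the start site. The summits of HSPA9 and TOMM40 lie within the printed stretch, and those of TIMM44 and TOMM6 lie outside it. The other stretches are those of TIMM22, marked in BPP only, then the interval between HSPD1 and HSPE1 and the promoter of TIMM50, both marked in CTR only, and PMPCB, whose start was marked in CTR only. Sequences are from RefSeq (GRCh38.p14), 5′ to 3′ in the direction of the named gene, and end at the base before its start site. Bases inside another protein-coding gene were left out. Capitals mark exact matches on either strand to any of 7 motifs. The GC box was searched as GGGCGG, the CCAAT box by the letters of its name, the ETS core as CCGGAAG, the NRF1 core as GCATGCGC, the cyclic AMP response element as TGACGTCA, the CHOP element as TGATGCAAT and the heat shock element core as GAANNTTC. No printed match overlaps another.
HSPA9 (chr5:138575402-138575651, minus strand): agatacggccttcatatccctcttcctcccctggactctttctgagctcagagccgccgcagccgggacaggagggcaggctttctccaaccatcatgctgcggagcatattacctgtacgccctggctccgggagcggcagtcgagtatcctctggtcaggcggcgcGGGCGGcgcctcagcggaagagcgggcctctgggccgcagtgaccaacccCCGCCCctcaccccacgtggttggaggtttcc
TIMM44 (chr19:7943667-7943916, minus strand): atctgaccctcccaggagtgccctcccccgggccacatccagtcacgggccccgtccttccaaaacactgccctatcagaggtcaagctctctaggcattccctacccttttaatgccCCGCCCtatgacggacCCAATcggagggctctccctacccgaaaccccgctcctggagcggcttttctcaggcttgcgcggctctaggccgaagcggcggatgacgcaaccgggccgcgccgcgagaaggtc
TOMM40 (chr19:44891004-44891253, plus strand): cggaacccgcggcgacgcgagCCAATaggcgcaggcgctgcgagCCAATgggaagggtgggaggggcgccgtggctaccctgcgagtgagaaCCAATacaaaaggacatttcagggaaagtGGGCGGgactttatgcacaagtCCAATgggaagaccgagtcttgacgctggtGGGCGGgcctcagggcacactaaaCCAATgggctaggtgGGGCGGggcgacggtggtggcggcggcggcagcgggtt
TOMM6 (chr6:41787453-41787693, plus strand): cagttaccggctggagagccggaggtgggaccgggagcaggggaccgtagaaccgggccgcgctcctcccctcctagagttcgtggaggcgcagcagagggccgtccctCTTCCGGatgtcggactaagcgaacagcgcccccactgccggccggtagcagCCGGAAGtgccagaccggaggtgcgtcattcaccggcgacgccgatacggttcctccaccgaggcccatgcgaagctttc
TIMM22 (chr17:996879-997128, plus strand): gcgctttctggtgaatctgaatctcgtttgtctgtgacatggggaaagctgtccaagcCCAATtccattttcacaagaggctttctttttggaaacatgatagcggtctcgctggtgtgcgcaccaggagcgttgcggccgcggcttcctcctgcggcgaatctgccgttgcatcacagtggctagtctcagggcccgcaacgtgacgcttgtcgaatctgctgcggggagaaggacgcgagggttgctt
HSPE1, up to the start of HSPD1 (chr2:197500275-197500378, plus strand): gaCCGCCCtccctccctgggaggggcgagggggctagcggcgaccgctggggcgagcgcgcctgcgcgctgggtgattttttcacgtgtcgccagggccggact
TIMM50 (chr19:39480588-39480837, plus strand): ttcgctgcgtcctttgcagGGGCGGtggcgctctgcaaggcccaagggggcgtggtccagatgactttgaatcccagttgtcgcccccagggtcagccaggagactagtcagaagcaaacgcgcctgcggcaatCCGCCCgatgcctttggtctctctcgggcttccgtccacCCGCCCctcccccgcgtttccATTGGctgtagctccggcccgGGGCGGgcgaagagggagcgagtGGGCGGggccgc
PMPCB (chr7:103297185-103297434, plus strand): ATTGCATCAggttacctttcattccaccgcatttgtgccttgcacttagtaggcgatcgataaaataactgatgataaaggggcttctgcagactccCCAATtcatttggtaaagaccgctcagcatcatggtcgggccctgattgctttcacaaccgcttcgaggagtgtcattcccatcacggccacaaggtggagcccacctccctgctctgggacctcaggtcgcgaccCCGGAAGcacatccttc

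These letters were also counted in whole promoters of 300 bases, from 250 before to 50 after the start site, for the 35 members and 15812 protein-coding genes with an entry. The table held no entry for TIMM8B, TOMM5, CLPP and YME1L1. The ETS core was found in 14 of 35 members (40.0%) against 14.2% of all promoters. The NRF1 core, bound by a regulator of nuclear genes for mitochondria, was found in 5 members (14.3%), namely CHCHD4, PAM16, TIMM10B, TIMM9 and TOMM7, against 4.26% of all. GC boxes were in 25 members (71.4%, against 58.5%) and CCAAT boxes in 12 (34.3%, against 36.3%). The cyclic AMP response element was found in 0 of 35 members, against 2.59% of all promoters, and the heat shock element core in 0 of 35, against 5.57%; with 35 promoters, a count of 0 allows up to 8.57%. PMPCB alone among members held the CHOP element, which 28 of the 15812 promoters held (0.177%); its first base lies 250 bases before the start site. Median GC content was 65.3% in members and 62.7% over all promoters. The 6 members without a peak at either end had a median of 67.3% and a GC box in 6 of 6. These matches are descriptions of sequence and were not tested as binding sites.

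H3K27ac at a gene end was listed for 26 of the 39 genes in BPP and for 29 in CTR, and 22 were in both lists. A gene-end peak is a peak overlapping a window of 1 kb on either side of either end of the gene. In BPP, 26 of 39 members had one (66.7%, 95% Wilson interval 51.0 to 79.4), against 30.6% of all protein-coding genes. In CTR, 29 of 39 had one (74.4%, 58.9 to 85.4), against 31.2%. In IgG 1 of 39 did (2.56%, 0.454 to 13.2), against 2.13%. By gene, 22 members were marked in both H3K27ac lists (56.4%, 40.98 to 70.7; 23.6% of all genes were), 4 in BPP only (7.03% of all), 7 in CTR only (7.57% of all) and 6 in neither (61.8% of all). Of members marked in either list, 66.7% were marked in both (22 of 33), against 61.8% of all genes marked in either. At a fold of 5 or more, 11 members were shared by the lists, 4 were marked in BPP alone and 5 in CTR alone. Limited to the 5000 top peaks of each list, these counts were 12, 5 and 4, so that the larger of the single-list counts changed sides. The 5 included PAM16, where an overlapping CTR peak lay just outside the window, and the 4 included HSPD1 and HSPE1 through 1 peak. These stricter settings were applied to members only, so no share of all genes stands beside the counts. The intervals cover counting error only and treat genes as independent, although HSPD1 and HSPE1 share a peak.

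**Figure D1:**
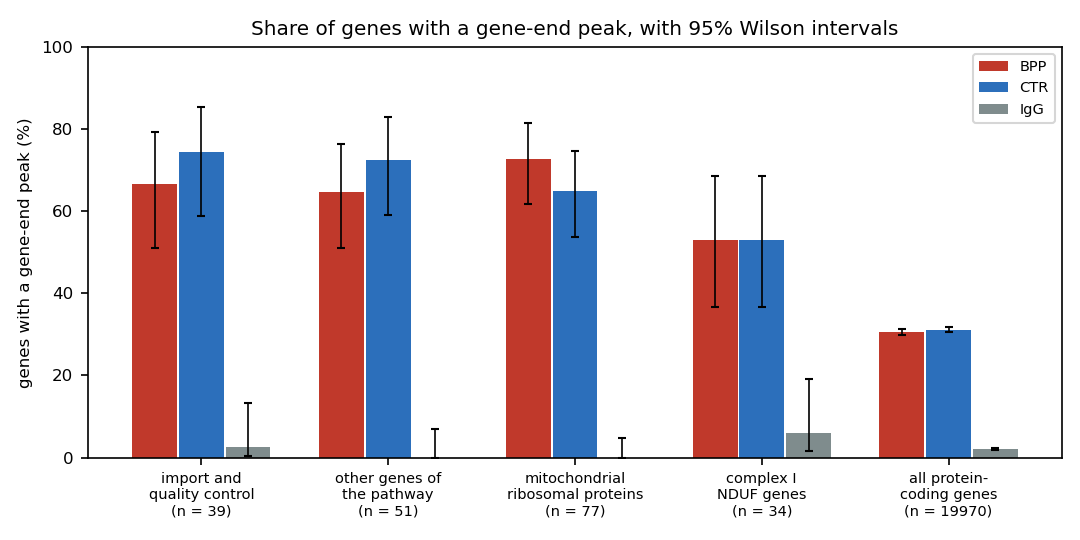
Percentage of genes (vertical axis) with a gene-end peak in BPP, CTR and IgG, 1 library each, for 5 gene sets; error bars are 95% Wilson intervals. Import and quality control genes reach 66.7% in BPP and 74.4% in CTR, against 30.6% and 31.2% of all protein-coding genes.

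Of the 29 distinct BPP gene-end peaks of members, 17 were in the 25% of their list with the highest −log10 q (58.6%), against 39.4% of the BPP gene-end peaks of all genes. In CTR, 14 of 32 were (43.8%), against 37.1%. The 29 distinct BPP gene-end peaks of members had a median −log10 q of 12.4 and a median fold of 5.11, against 9.15 and 4.89 for all 5426 BPP gene-end peaks. The 32 distinct CTR peaks had a median −log10 q of 9.10 and a median fold of 5.09, against 9.10 and 5.16 for all 5396. Both measures are the authors' own per-peak values, and the background of the fold is not described. They rank peaks within a list, and unequal values in the 2 lists are not taken as altered acetylation.

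**Figure D2:**
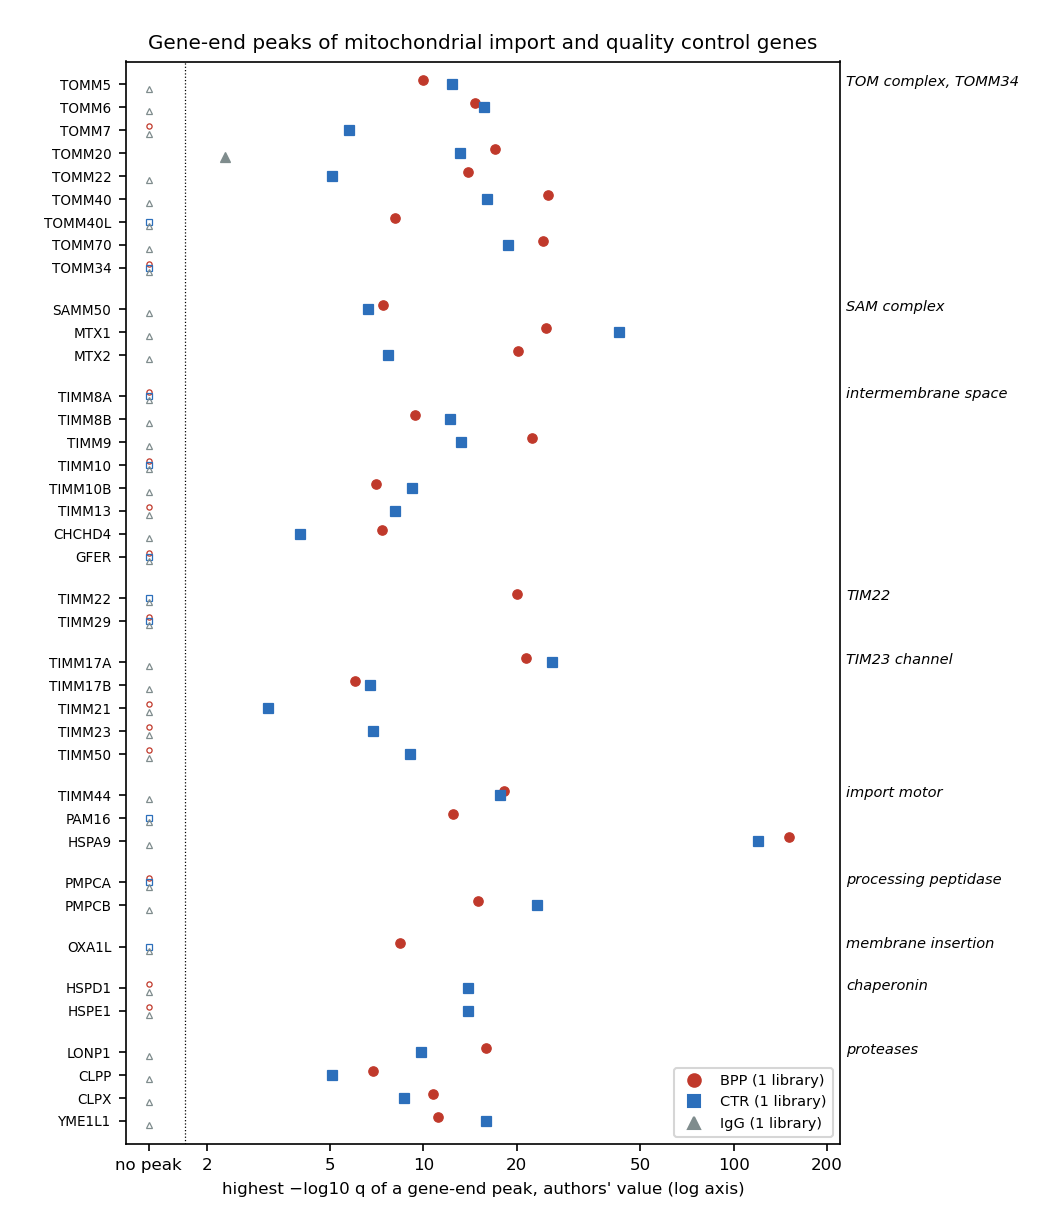
Highest −log10 q of a gene-end peak (horizontal log axis, authors' value) for the 39 members by role, with 1 library per symbol; small open symbols left of the dotted line mark no gene-end peak. HSPA9 stands furthest right in both H3K27ac lists (151 in BPP, 119 in CTR), and the only IgG symbol with a value is at TOMM20 (2.30).

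Start sites from the promoter table separated promoter peaks from peaks at the far end of a gene. Of 35 members with a start site, 20 had a BPP peak within 1 kb of it and 25 a CTR peak (32.3% and 33.9% of 15812 genes), 17 had both (25.9% of genes), 3 had BPP only (6.42%), 8 CTR only (8.08%) and 7 neither (59.6%). No member had an IgG peak there, which with 35 genes allows a share of up to 8.57%, and 1.61% of all genes did. Counting each gene and peak pair at a start site, the summit lay at a median of 55 bp after it in BPP (21 pairs, from 1217 bp before to 720 after) and 108 bp after it in CTR (26 pairs, from 1276 before to 1134 after). The peak covered the start site itself in 16 pairs of each list. Another annotated gene started within 1 kb of the peak in 14 of 29 BPP and 17 of 33 CTR gene and peak pairs. Such a peak cannot be assigned to 1 of the genes. Examples are TIMM9 (with KIAA0586), TIMM10B (ARFIP2), TIMM21 (FBXO15) and the start of LONP1 (CATSPERD). This count was made for members only, so no share of all genes stands beside it.

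**Figure D3:**
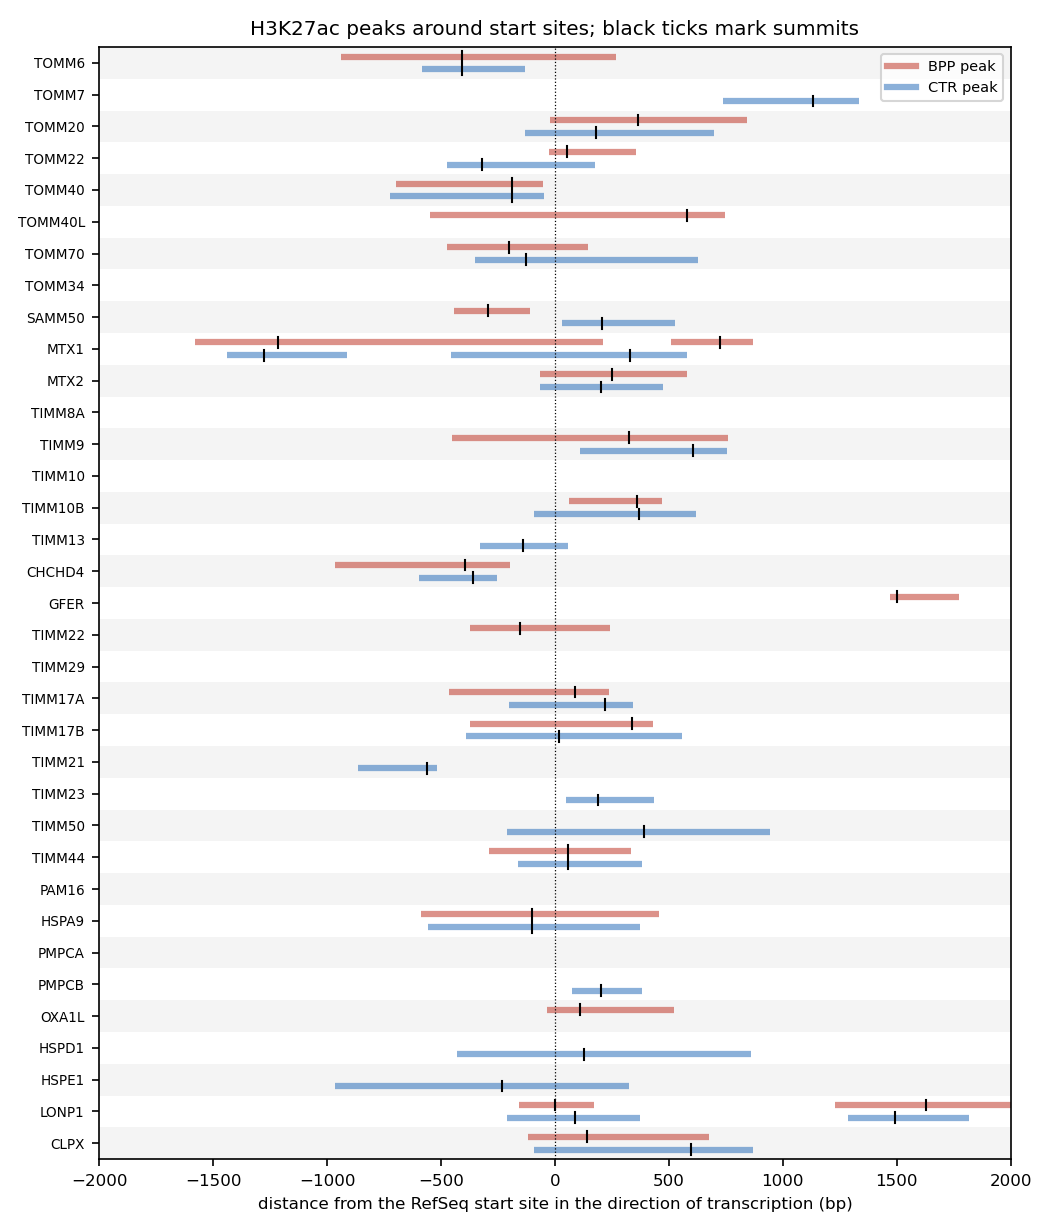
BPP and CTR peaks within 2 kb of the start site of the 35 members with one, drawn as bars along the distance from the start site in the direction of transcription (bp); black ticks are summits. Ticks of both lists meet at TOMM6, TOMM40, TIMM44 and HSPA9, whereas TIMM22 has a BPP bar alone and HSPD1, HSPE1, TIMM23 and TIMM50 have a CTR bar alone.

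Among the outer-membrane entry genes, 6 of 9 were marked in both lists, against 23.6% of all genes. At a fold of 5 or more TOMM40 and TOMM22 were in BPP only and TOMM6 in CTR only; among the top 5000 peaks TOMM22 was in BPP only and TOMM5 in CTR only. TOMM40, the pore of the complex, had a BPP peak at chr19:44890557-44891202 (fold 5.39, −log10 q 25.1) and a CTR peak at chr19:44890530-44891206 (fold 4.99, −log10 q 16.0). Both ended just before the start site, with summits 189 and 190 bp before it, over the stretch of CCAAT boxes printed above. TOMM70, a receptor for carrier precursors, had a BPP peak of fold 7.71 (−log10 q 24.2) and a CTR peak of fold 6.14 (−log10 q 18.8) between its start and that of LNP1. An IgG peak lay inside TOMM70, away from its ends (chr3:100375606-100375996, fold 3.58, −log10 q 2.20), and overlapped no H3K27ac peak. TOMM20, the presequence receptor, had a start-site peak of fold 6.25 in BPP (−log10 q 17.1) and 5.80 in CTR (−log10 q 13.1). TOMM20 was also the sole member with an IgG gene-end peak (chr1:235109082-235109591, −log10 q 2.30); it lay at the far end of the gene and overlapped no H3K27ac peak. A further CTR peak lay 860 bp beyond that end (fold 4.19, −log10 q 5.40).

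The small subunits were mixed. TOMM6 had summits 407 and 408 bp before its start site in BPP (fold 4.70, −log10 q 14.7) and CTR (fold 5.62, −log10 q 15.6), and TOMM5 had folds of 5.87 and 6.75. At TOMM22, the central receptor, the peaks overlapped by 205 bp, but the BPP summit lay 54 bp after the start site (fold 6.90, −log10 q 14.0) and the CTR summit 321 bp before it (fold 4.45, −log10 q 5.08). TOMM7, a modulator of complex assembly, had a CTR peak only (chr7:22821513-22822110, fold 4.52, −log10 q 5.76), with its summit 1134 bp inside the gene and the nearest BPP peak 32.4 kb away. TOMM40L, a paralog of the pore, had a BPP peak only (chr1:161225511-161226805, fold 3.32, −log10 q 8.07), with the nearest CTR peak 15.6 kb away. TOMM34, a cytosolic co-chaperone, had no peak; the nearest lay 6.13 kb from its ends in BPP and 6.02 kb in CTR, both at the start of STK4.

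All 3 SAM assembly genes were marked in both lists, against 23.6% of all genes. MTX1, metaxin 1, shares its upstream region with THBS3. Its strongest CTR peak covered the start site (chr1:155208238-155209275, fold 5.70, −log10 q 42.6; rank 359 of 14836). In BPP a peak of 1794 bp covered a start of THBS3 and that of MTX1 (chr1:155207113-155208906, fold 4.29, −log10 q 24.9), with another after the start site (fold 2.90). Peaks of the 2 lists thus covered much of the same stretch but were divided differently. MTX2 had a BPP peak of fold 9.92 (−log10 q 20.1; rank 1477 of 17841) and a CTR peak of fold 6.28 (−log10 q 7.67; rank 6706 of 14836) over its start site. SAMM50, the barrel itself, had peaks on either side of the start site that did not overlap, 140 bp apart, with the BPP summit 295 bp before it (fold 4.76) and the CTR summit 207 bp after it (fold 4.54). At a fold of 5 or more MTX1 was in CTR only and SAMM50 in neither; among the top 5000 peaks MTX2 was in BPP only and SAMM50 in neither.

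Among the genes for the intermembrane space, 4 of 8 were marked in both lists, 1 in CTR only and 3 in neither. Of all genes, 23.6%, 7.57% and 61.8% were. TIMM9, which pairs with TIMM10 in a chaperone for hydrophobic precursors, had a BPP peak of 1214 bp (fold 7.76, −log10 q 22.4) and a CTR peak of 645 bp lying wholly within it (fold 6.01, −log10 q 13.2). TIMM10 itself had none in either list; the nearest lay 13.8 kb away in BPP and 108.3 kb in CTR. TIMM8B, whose start lies beside that of SDHD, a subunit of succinate dehydrogenase, had a BPP peak of fold 5.11 and a CTR peak of fold 6.07 that overlapped by 625 bp. Its paralog TIMM8A had no peak, and the nearest in each list lay 42.2 kb away at BTK and RPL36A. TIMM10B, whose protein binds the TIM22 complex, had summits 360 and 367 bp after its start site, with folds of 3.81 in BPP and 4.40 in CTR. TIMM13, partner of the TIMM8 proteins, had a CTR peak only (chr19:2427530-2427916, fold 3.19, −log10 q 8.07), covering its start site. At a fold of 5 or more and among the top 5000 peaks of each list, TIMM13, TOMM7 and TOMM40L had no peak in either list, and TOMM7 had none with windows of 500 bp either. TIMM10B and CHCHD4 likewise had none at both thresholds, and TIMM8B was in CTR only among the top 5000.

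Of the disulfide relay, CHCHD4 was marked in both lists and GFER in neither. These calls moved with the setting: CHCHD4 was in BPP only at −log10 q of 5 or more, and GFER in BPP only with windows of 2 kb. CHCHD4, the oxidoreductase of the relay, had a BPP peak of fold 4.21 (−log10 q 7.33; rank 8535 of 17841) upstream, towards TMEM43. Its CTR peak there had fold 3.30 (−log10 q 4.00; rank 13267 of 14836). A further BPP peak lay inside CHCHD4 (chr3:14117243-14117663, fold 3.48, −log10 q 3.88). GFER, which reoxidises CHCHD4, had no gene-end peak; a BPP peak of fold 3.24 lay inside the gene (chr16:1985663-1985966, −log10 q 4.69), and the nearest CTR peak was 20.9 kb from it.

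Among the inner-membrane channels, 1 of 2 TIM22 genes was marked in BPP only and 3 of 5 TIM23 genes in CTR only. Over all protein-coding genes, 7.03% were marked in BPP only and 7.57% in CTR only. TIMM22, the channel for carrier proteins, had a BPP peak over its start site (chr17:996757-997370, fold 7.06, −log10 q 20.1; rank 1479 of 17841). The nearest CTR peak lay 23.2 kb from it, and this gene was marked in BPP only under every alternative setting tried. TIMM29, its partner in the complex, had no peak in either list, with the nearest 12.8 kb away in BPP and 16.8 kb in CTR.

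All 5 genes of the TIM23 channel were marked in CTR (31.2% of all genes were) and 2 of 5 in BPP (30.6% of all). TIMM17A had the strongest peaks, with fold 7.06 in BPP (chr1:201955037-201955739, −log10 q 21.5) and 8.02 in CTR (chr1:201955301-201955844, −log10 q 26.0), both over the start site. TIMM17B, its X-linked paralog, had folds of 3.68 and 4.19 at an interval shared with PQBP1. TIMM50, the presequence receptor of the channel, had a CTR peak of 1155 bp over its start site (chr19:39480627-39481781, fold 4.16, −log10 q 9.02), and the nearest BPP peak was 44.6 kb away. TIMM23, the channel protein, had a CTR peak just after its start site (chr10:45972536-45972925, fold 4.66, −log10 q 6.87), with the nearest BPP peak 155.1 kb away. TIMM23 has a near-identical copy, TIMM23B, which also had a CTR peak alone (fold 5.15, −log10 q 7.82), so the placement of reads between them is uncertain. TIMM21 had a weak CTR peak (chr18:74147657-74148003, fold 4.11, −log10 q 3.15; rank 14565 of 14836) lying 520 bp before its start. The peaks of TIMM17B, TIMM21, TIMM23 and TIMM50 fell away at a fold of 5 or more and among the top 5000 peaks of each list, and that of TIMM21 also at −log10 q of 5 or more and with windows of 500 bp.

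In the import motor, HSPA9 carried the strongest peaks of all members. HSPA9 is mitochondrial HSP70, also called mortalin, which pulls precursors inward and folds them. Its BPP peak (chr5:138574946-138575989, fold 12.2, −log10 q 151) ranked 44 of 17841 and its CTR peak (chr5:138575030-138575959, fold 12.2, −log10 q 119) ranked 71 of 14836. The summits lay 102 and 103 bp before the start site, within the stretch printed above, and the CTR peak lay wholly inside the BPP peak. TIMM44, which tethers HSPA9 to the channel, had folds of 5.93 and 6.45 (−log10 q 18.2 and 17.6), with summits 55 and 56 bp after its start site. PAM16, a regulator of the motor, counted as marked in BPP only through a peak 991 bp beyond its far end (chr16:4338410-4339260, fold 3.08, −log10 q 12.4). A CTR peak overlapped that peak by 316 bp, with its summit 2 bp away, but lay 1094 bp beyond the gene and so just outside the window. PAM16 had no peak within 1 kb of its start site in either list, and both lists had a peak inside the gene (fold 2.70 in BPP, 3.48 in CTR).

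Of the matrix processing peptidase, PMPCB, the catalytic subunit, was marked in both lists at its far end, but in CTR only at its start. Peaks at the far end (fold 5.63 in BPP, 6.88 in CTR) overlapped by 380 bp at the start of PSMC2, and peaks inside the gene (5.21 and 5.38) overlapped by 558 bp at the start of DNAJC2. At its own start site there was a CTR peak only (chr7:103297510-103297818, fold 6.46, −log10 q 7.95), and the nearest BPP peak was 46.3 kb away. This CTR peak ranked 6370 of 14836, outside the top 5000 of its list. PMPCA, the substrate-binding subunit, had no peak, with the nearest 6.25 kb away in BPP and 6.61 kb in CTR. OXA1L, the insertase of the inner membrane, had a BPP peak only over its start site (chr14:22766652-22767210, fold 5.42, −log10 q 8.38), and the nearest CTR peak was 62.7 kb away. That call was lost among the top 5000 peaks of each list.

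The chaperonin genes HSPD1 and HSPE1 lie head to head, 104 bp apart, and were marked by a single CTR peak of 1290 bp that covered both starts (chr2:197499414-197500703, fold 5.18, −log10 q 14.0; rank 2625 of 14836). HSPD1 encodes HSP60, the folding chamber, and HSPE1 encodes HSP10, its lid. The nearest BPP peak lay 18.3 kb from it, and both genes were marked in CTR only under every alternative setting tried. They are 2 of the 7 members marked in CTR only, through 1 peak.

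All 4 protease genes were marked in both lists, against 23.6% of all genes. LONP1, the Lon protease of the matrix, had overlapping peaks at its start site (fold 4.94 and −log10 q 15.9 in BPP; fold 4.38 and −log10 q 8.54 in CTR) and further ones at its far end, where RPL36 starts, whose summits were 1 bp apart. CLPX, the unfoldase of CLPXP, had folds of 5.26 and 5.23 over its start site. CLPP, the peptidase it feeds, had a BPP peak (fold 4.64) and a CTR peak (fold 4.15) 141 bp apart. YME1L1, a protease of the inner membrane, shared a broad interval with MASTL, with peaks of 1592 bp in BPP (fold 4.88, −log10 q 11.1) and 1776 bp in CTR (fold 5.35, −log10 q 15.9). At a fold of 5 or more, CLPX alone of the 4 stayed in both lists, with YME1L1 in CTR only and LONP1 and CLPP in neither. Among the top 5000 peaks of each list, LONP1 and YME1L1 stayed in both, with CLPX in BPP only and CLPP in neither. LONP1 kept its CTR call there through the far-end peak (rank 4652 of 14836), since its start-site CTR peak ranked 5762. With windows of 500 bp CLPP was in CTR only.

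By position, 23 of the 29 BPP gene-end peaks of members overlapped a CTR peak (79.3%, 61.6 to 90.2), against 69.9% of all BPP gene-end peaks. Of the 32 CTR peaks, 22 overlapped a BPP peak (68.8%, 51.4 to 82.0), against 69.6%. Where peaks overlapped, the median gap between summits was 75 bp for BPP peaks of members and 130 bp for those of all genes. Summits within 1 bp of each other were found at 5 of the 23 (21.7%, against 5.56% of 3795), which are TOMM6, TOMM40, TIMM44, HSPA9 and the far end of LONP1.

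Of 51 further genes for import, cristae structure, proteolysis and mitochondrial stress signalling, 30 were marked in both lists (58.8%, against 23.6% of all genes). Another 3 were in BPP only (5.88%, against 7.03%), 7 in CTR only (13.7%, against 7.57%) and 11 in neither (21.6%, against 61.8%). By list, 64.7% had a gene-end peak in BPP (51.0 to 76.4, against 30.6%) and 72.5% in CTR (59.1 to 82.9, against 31.2%). None had one in IgG, where 51 genes allow up to 5.88%. Of those marked in 1 list only, the highest −log10 q was at DDIT3, which encodes the stress factor CHOP (BPP, fold 3.38, −log10 q 15.2), at a peak within 1 kb of the start of MBD6 as well. SPG7, a protease subunit of the inner membrane, followed in CTR (fold 4.54, −log10 q 11.6), then MICOS10 of the cristae junctions (CTR, fold 6.06), TIMM23B (above) and IMMP2L, an inner-membrane peptidase (BPP, fold 5.35).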

How the data were processed

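CUT&Tag peak lists of 3 A2780 libraries (BPP, CTR, IgG; groups from the sample titles) were used. The tools named in the submitters' processing notes are fastp, deepTools 3.3.0 and Bowtie2 2.4.1, with build GRCh38.p13 (hg38). How peaks were called, and whether IgG entered the calling, is not given in the sources used here. Each library has its own list, and the columns the authors deposited are a score (the −log10 p times 10, truncated), a fold (a ratio to an undescribed background), a −log10 q-value and a −log10 p-value, which was never under 5. Absence from a list may mean a signal just below the caller's threshold, which moves with depth.

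Only chromosomes 1 to 22 and X were used (28 BPP, 37 CTR and 14 IgG peaks left out). Gene spans came from RefSeq (GRCh38.p14, whose chromosome coordinates equal those of the earlier patch), start sites and strand from its promoter table, nearest start where a gene had several. Overlap counted from 1 bp. Ranks are by −log10 q. Coordinates count from 1. The overlap step was tested on simulated data and against bedtools 2.31.1, with identical counts. The scripts ran in Python 3.11.15 (scipy 1.17.1, pandas 2.3.3, numpy 2.4.6, matplotlib 3.10.9).

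Members and lists were chosen with earlier results of these data known. Values are given for members marked in 1 list only, those with an IgG peak and up to 3 per role with the highest −log10 q; of the other pathway genes, the 6 with the highest −log10 q in 1 list only, of which 1 is not reported here. TOMM5, TOMM6, TOMM22, CHCHD4 and CLPP were added after their values were seen. The motifs, the printed promoters and the ribosomal (MRPL, MRPS) and complex I (NDUF) sets were also chosen after seeing the data. Alternatives were other windows, stricter peak thresholds, equal list lengths, leaving out peaks that overlap IgG, and 50% overlap. Windows at start sites only were chosen after seeing the data.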

Additional observations from a re-analysis of the deposited data

How the results depend on the processing

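With windows of 500 bp or 2 kb, −log10 q of 5 or more, or peaks overlapping IgG left out, the 5 counts of members by H3K27ac list stayed within 1.5 times their values. At a fold of 5 or more, 15 members were marked in BPP, 16 in CTR and 11 in both. With the top 5000 peaks of each list, 17 were marked in BPP, 16 in CTR and 12 in both, with 5 in BPP alone and 4 in CTR alone. These settings keep fewer peaks by construction, and they were applied to members only, without a share of all genes to set beside the counts. The single IgG gene-end peak was lost (0 members) at −log10 q of 5 or more, at a fold of 5 or more and with windows at start sites only. By gene, 6 of the 22 members marked in both lists (HSPA9, TIMM17A, TIMM44, TIMM9, TOMM20 and TOMM70) kept that call in every setting, as did 1 of 4 in BPP only (TIMM22), 2 of 7 in CTR only (HSPD1 and HSPE1) and 5 of 6 in neither. PAM16 counted as marked in both with windows of 2 kb. Requiring 50% overlap of both peaks left 17 of 29 BPP and 17 of 32 CTR peaks of members overlapped. This rule too was applied to members only, so no share of all gene-end peaks stands beside these counts. Leaving out a replicate was not possible with 1 library per group. No paired analysis was possible because each group has 1 library. Depth is unknown, so absence of a peak from a list does not show absence of the mark.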

Other observations

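Of 77 mitochondrial ribosomal protein genes (symbols MRPL and MRPS), 56 had a gene-end peak in BPP (72.7%, 95% Wilson interval 61.9 to 81.4) and 50 in CTR (64.9%, 53.8 to 74.7), with 12 in BPP only and 6 in CTR only. Of 34 genes of respiratory complex I (symbols NDUFA, NDUFB, NDUFS and NDUFV), 18 had one in each list (52.9%, 36.7 to 68.5), with 4 in BPP only and 4 in CTR only. The intervals of the 3 sets overlap in both lists. Whether the sets differ was not tested, and these counts were made with the 1 kb windows alone. As percentages, the single-list counts were 15.6% (BPP only) and 7.79% (CTR only) for ribosomal genes, and 11.8% each for complex I. The matching background shares, over all 19970 genes, were 30.6% (BPP), 31.2% (CTR), 7.03% (BPP only) and 7.57% (CTR only). The ribosomal CTR-only share thus lay close to its background.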
